A study of Mus musculus with 9 samples.

Results

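The 10 genes described here, Tnc, Thbs1, Thbs2, Sparc, Spp1, Fn1, Fbn1, Dcn, Adam12 and Lox, were taken by name from the 33495 genes of a count table, in which each matched 1 row. RNA was sequenced from RF8 mouse embryonic stem (ES) cells stably carrying 1 of 3 constructs, the wild type transcription factor Nanog (WT), the L122A variant of Nanog (L122A, a leucine to alanine change), or enhanced green fluorescent protein (EGFP) as the control. Each transfectant was grown in 3 cultures: with 5 µM retinoic acid and no leukaemia inhibitory factor (RA), without the factor (no-LIF), and with the factor at 1000 units per ml, the routine culture (LIF). All cells shared the RF8 background and were maintained under puromycin selection. There was 1 library for each of the 9 combinations, so nothing below has a replicate. None of the sources used here says which promoter drove a construct, from which species it came, how long each culture lasted, or whether a transfectant was a clone or a pool. The set was selected on measured values of these same libraries, namely the difference between the Nanog transfectants and EGFP, in which Tnc and Adam12 were among the genes furthest below EGFP in WT. Differences of the 10 genes from EGFP are therefore given as a description, with no test.

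Matricellular proteins are secreted into the extracellular matrix but serve less as its scaffold than as signals, which cells read through integrins, syndecans and CD36. Tenascin-C and the thrombospondins loosen cell adhesion and, in the case of thrombospondin 1, activate latent TGF-beta, while fibronectin and fibrillin form the fibres on which such proteins sit. ES cells kept with LIF make little fibrillar matrix, and retinoic acid drives them into differentiated cells, among them matrix-producing endoderm-like and mesenchymal cells.

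The library totals ran between 24166395 and 28714988 counts. Counts scaled to library size (CPM) used edgeR's trimmed mean of M-values (TMM), with factors between 0.810 and 1.255, and ribosomal RNA genes took 15.0% to 23.1% of the counts. With RA, Nanog stood at 194.5 CPM in WT, 258.5 CPM in L122A and 0.870 CPM in EGFP. Without LIF it stood at 168 CPM in WT, 129.9 CPM in L122A and 290.4 CPM in EGFP, and with LIF at 222.5, 239 and 384 CPM in WT, L122A and EGFP. Nanog was thus higher in the Nanog transfectants than in EGFP only with RA, and the table does not separate construct from endogenous transcripts. The 6 ES cell markers summed to 110.1 CPM in WT, 513 CPM in L122A and 15.0 CPM in EGFP with RA, and to between 1786 and 5051 CPM in the other 6 libraries. In bulk RNA, fewer cells of a type and less RNA per cell cannot be told apart.

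Promoter sequence is shown for Tnc, the gene of the set with the lowest fitted value over the 3 cultures in both Nanog transfectants relative to EGFP, and for Spp1, the gene that went the other way. RefSeq windows of 250 bases before to 50 bases after a transcript start (GRCm38.p6, printed on the gene's own strand) were given for 5 of the 10 genes, Tnc, Thbs2, Sparc, Spp1 and Fbn1, in 7 windows. Capitals mark the octamer ATGCAAAT, the element bound by POU factors such as Oct4, and the longer palindromic element (PORE) that is the octamer directly preceded by ATTTGAA and was described in the mouse Spp1 gene as an Oct4 site.
Tnc, chr4:64046887-64047186, minus strand: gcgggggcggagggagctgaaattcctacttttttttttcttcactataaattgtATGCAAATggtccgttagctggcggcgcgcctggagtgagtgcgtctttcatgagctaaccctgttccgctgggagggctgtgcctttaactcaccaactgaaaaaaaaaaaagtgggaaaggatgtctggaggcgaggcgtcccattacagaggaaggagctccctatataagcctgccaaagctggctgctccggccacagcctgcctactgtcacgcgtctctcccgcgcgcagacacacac
Spp1, chr5:104435942-104436241, plus strand: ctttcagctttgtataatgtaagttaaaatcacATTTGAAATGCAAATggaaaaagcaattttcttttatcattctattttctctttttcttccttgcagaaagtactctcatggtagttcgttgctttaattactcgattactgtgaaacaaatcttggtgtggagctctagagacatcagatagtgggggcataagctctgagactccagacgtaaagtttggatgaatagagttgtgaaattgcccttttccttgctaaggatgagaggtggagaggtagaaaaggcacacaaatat
The octamer began 195 bases before this Tnc start and 116 bases before the other annotated start, which lies 79 bases upstream. In Spp1 it began 210 bases before the second annotated start, 1081 bases downstream of the first, and lay inside the PORE. On either strand, the octamer was found in 1.74% of 32851 promoter windows and the PORE in 0.00609%, which is 2 windows. GGAATG, a TEAD motif held by 14.7% of windows, TGANTCA, an AP-1 motif held by 7.81%, and AGGTCA, a retinoic acid receptor motif held by 16.3%, were not in the 7 windows. The motifs were chosen after the windows had been read, and a match is a description of the letters and not of binding.

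**Figure D1:**
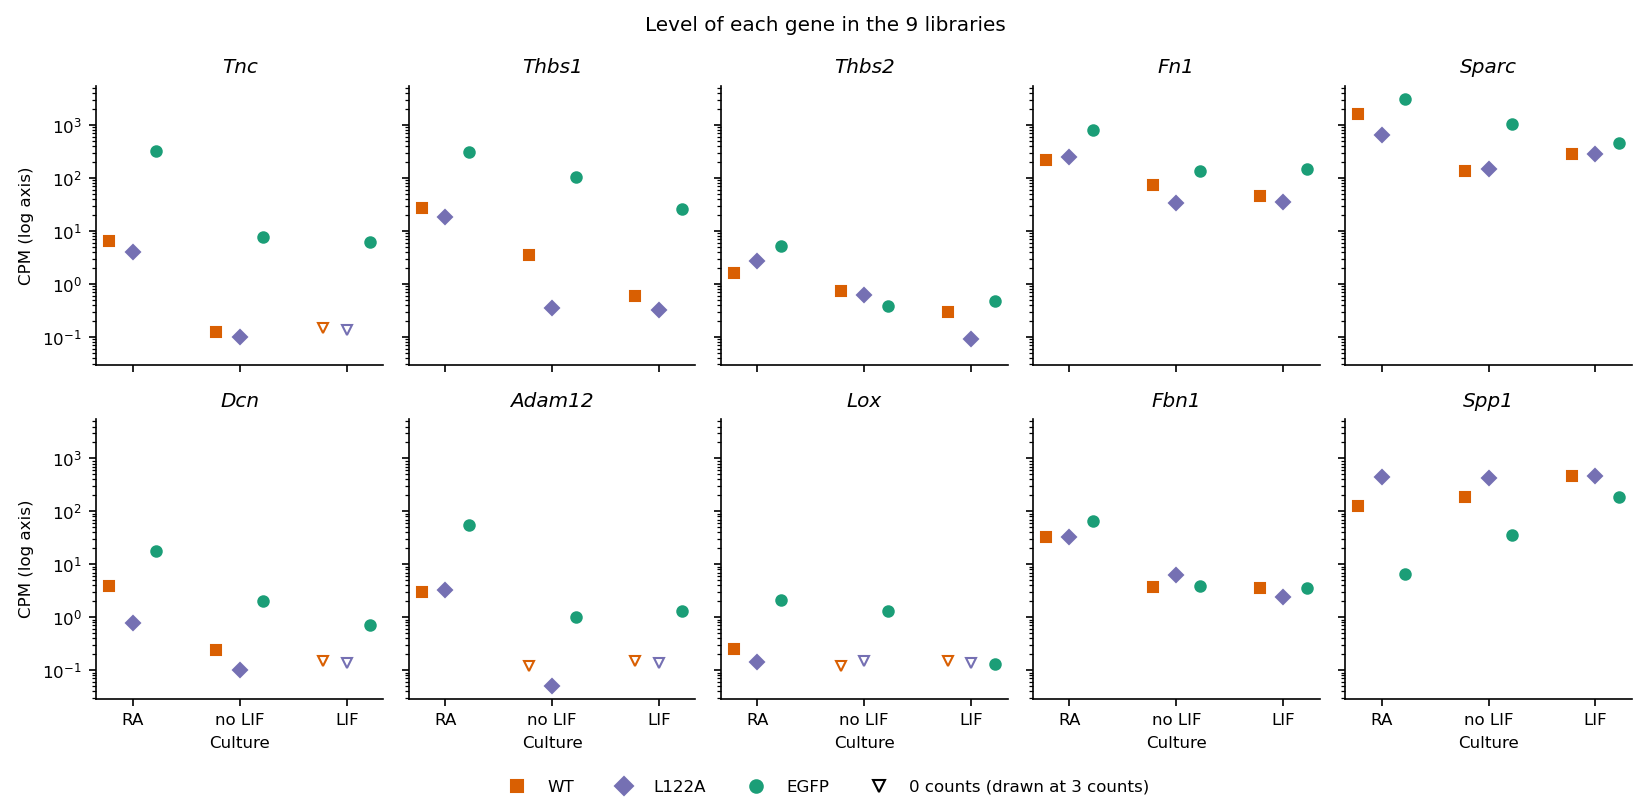
TMM-scaled CPM (log axis) of the 10 genes, 1 point per library, by culture (RA, no LIF, LIF) and transfectant (squares WT, diamonds L122A, circles EGFP). Open triangles mark libraries with 0 counts, drawn at the level of 3 counts. Tnc, Thbs1, Fn1, Sparc, Dcn and Adam12 were highest in EGFP in each culture, and Spp1 was lowest there.

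Tnc (ENSMUSG00000028364; mm9 chromosome 4, 63620819 to 63707850, minus strand) encodes tenascin-C, an adhesion-modulating glycoprotein of embryonic and wounded tissue. With RA it had 207 counts or 6.47 CPM in WT, 142 counts or 3.98 CPM in L122A, and 10168 counts or 316 CPM in EGFP. Without LIF it had 3 counts in WT, 2 counts in L122A and 201 counts (7.67 CPM) in EGFP. With LIF it had 0 counts in both Nanog transfectants and 183 counts (6.12 CPM) in EGFP. Every EGFP library stood above both Nanog libraries of its culture, and WT with RA was the only Nanog library to reach the level of EGFP with LIF. With RA, Tnc was 48.9-fold lower in WT than in EGFP (95% interval 42.6 to 56.3) and 79.4-fold lower in L122A than in EGFP (67.3 to 94.4). These intervals, exact Poisson intervals on the 2 counts, cover counting error only, as do all intervals on pairs of libraries below. With LIF, where a count of 0 was set to 3 counts per library, it was at least 41.5-fold lower in WT and at least 45.2-fold lower in L122A.

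Thbs1 (ENSMUSG00000040152; mm9 chromosome 2, 117937612 to 117952869, plus strand) encodes thrombospondin 1, an inhibitor of angiogenesis that activates latent TGF-beta. With RA it stood at 27.5 CPM (880 counts) in WT, 642 counts in L122A and 305.5 CPM (9828 counts) in EGFP. Without LIF it stood at 3.47 CPM in WT, 0.354 CPM (7 counts) in L122A and 102 CPM in EGFP. With LIF it stood at 0.5905 CPM (12 counts) in WT, 0.316 CPM (7 counts) in L122A and 25.8 CPM in EGFP. In each culture both Nanog libraries lay below EGFP, and only WT with RA came above the lowest EGFP value, that with LIF. The deficit relative to EGFP was 11.1-fold in WT (10.4 to 11.9) and 17.0-fold in L122A (15.7 to 18.4) with RA. Without LIF it was 29.5-fold in WT (23.8 to 37.1) and 289-fold in L122A (140.0 to 719), and with LIF 43.7-fold in WT (24.9 to 84.9) and 81.6-fold in L122A (39.4 to 204).

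Thbs2 (ENSMUSG00000023885; mm9 chromosome 17, 14805653 to 14831242, minus strand), the close relative of Thbs1 that shapes collagen fibres, was scarce. With RA it had 51 counts (1.59 CPM) in WT, 98 counts (2.75 CPM) in L122A and 167 counts (5.19 CPM) in EGFP. In the other cultures no library held more than 18 counts, with 18 in WT, 12 in L122A and 10 in EGFP without LIF, and 6, 2 and 14 in WT, L122A and EGFP with LIF. Only with RA did it stand below EGFP by an interval that left out equality in both Nanog transfectants, by 3.26-fold in WT (2.37 to 4.55) and 1.89-fold in L122A (1.46 to 2.45).

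Sparc (ENSMUSG00000018593; mm9 chromosome 11, 55208002 to 55233582, minus strand) encodes osteonectin, a collagen-binding protein abundant in basement membranes and parietal endoderm. With RA it stood at 1592 CPM in WT, 655 CPM in L122A and 3134 CPM in EGFP. Without LIF it stood at 134 CPM in WT, 147 CPM in L122A and 1021 CPM in EGFP. With LIF it stood at 283 CPM in WT, 287 CPM in L122A and 462 CPM in EGFP. The gap to EGFP was widest without LIF, 7.59-fold in WT (7.32 to 7.88) and 6.96-fold in L122A (6.70 to 7.23), and narrowest with LIF, 1.635-fold in WT (1.59 to 1.69) and 1.61-fold in L122A (1.56 to 1.66). Relative to LIF, the no-LIF library was 2.10-fold lower in WT (2.01 to 2.195) and 1.96-fold lower in L122A (1.87 to 2.05), but 2.21-fold higher in EGFP (2.164 to 2.255).

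Spp1 (ENSMUSG00000029304; mm9 chromosome 5, 104864137 to 104870069, plus strand) encodes osteopontin, an integrin-binding phosphoprotein that is made in bone and also in early embryonic cells. It was the gene that stood higher in the Nanog transfectants in all 3 cultures. With RA it had 124 CPM (3953 counts) in WT, 443 CPM (15797 counts) in L122A and 6.53 CPM (210 counts) in EGFP. Without LIF it had 188.5 CPM in WT, 423 CPM in L122A and 36.05 CPM in EGFP, and with LIF 467 CPM in WT, 466 CPM in L122A and 185 CPM in EGFP. L122A kept nearly the same level in each culture, with an RA to LIF ratio of 0.951 (0.928 to 0.975), whereas that ratio was 0.265 in WT (0.255 to 0.275) and 0.0353 in EGFP (0.0306 to 0.0405). The excess over EGFP was 18.9-fold in WT (16.5 to 21.85) and 67.85-fold in L122A (59.2 to 78.1) with RA, 5.23-fold in WT (4.87 to 5.61) and 11.7-fold in L122A (10.98 to 12.57) without LIF, and 2.52-fold in each with LIF (2.44 to 2.61 in WT, 2.44 to 2.60 in L122A).

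Fn1 (ENSMUSG00000026193; mm9 chromosome 1, 71632094 to 71699730, minus strand) encodes fibronectin, the adhesive fibre on which other matrix assembles. With RA it stood at 223 CPM in WT, 248 CPM in L122A and 808 CPM in EGFP. Without LIF it stood at 74.3 CPM in WT, 33.9 CPM in L122A and 136 CPM in EGFP, and with LIF at 44.8 CPM in WT, 35.65 CPM in L122A and 145 CPM in EGFP. It was lower than in EGFP in every pair, between 1.83-fold (WT without LIF, 1.73 to 1.94) and 4.06-fold (L122A with LIF, 3.765 to 4.39). The RA to LIF ratio was similar in size in the 3 transfectants, 4.97 in WT (4.64 to 5.33), 6.97 in L122A (6.48 to 7.50) and 5.58 in EGFP (5.404 to 5.765).

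Fbn1 (ENSMUSG00000027204; mm9 chromosome 2, 125126330 to 125333729, minus strand) encodes fibrillin 1, the backbone of the microfibrils that store latent TGF-beta. With RA it stood at 33.4 CPM in WT, 32.3 CPM in L122A and 65.9 CPM in EGFP. Without LIF it stood at 3.67 CPM in WT, 6.23 CPM in L122A and 3.93 CPM in EGFP, and with LIF at 3.54 CPM in WT, 2.44 CPM in L122A and 3.58 CPM in EGFP. Here the transfectants overlapped across the 2 cultures without RA, and a deficit of about the same size in both Nanog transfectants was seen with RA, 1.975-fold in WT (1.83 to 2.13) and 2.04-fold in L122A (1.90 to 2.20). Dcn (ENSMUSG00000019929; mm9 chromosome 10, 96942245 to 96980777, plus strand) encodes decorin, a small proteoglycan that coats collagen fibrils. With RA it had 126 counts (3.94 CPM) in WT, 28 counts (0.785 CPM) in L122A and 568 counts (17.65 CPM) in EGFP. It had 6 counts in WT, 2 in L122A and 54 (2.06 CPM) in EGFP without LIF, and 0, 0 and 21 counts in WT, L122A and EGFP with LIF. Dcn with RA was 4.48-fold lower in WT (3.69 to 5.48) and 22.5-fold lower in L122A (15.4 to 34.15) than in EGFP.

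Adam12 (ENSMUSG00000054555; mm9 chromosome 7, 141074882 to 141423829, minus strand) encodes a membrane-bound metalloprotease of muscle and mesenchymal precursors. With RA it had 95 counts (2.97 CPM) in WT, 116 counts (3.25 CPM) in L122A and 1782 counts (55.4 CPM) in EGFP. Without LIF it had 0 counts in WT, 1 in L122A and 26 (0.992 CPM) in EGFP, and with LIF 0 counts in both Nanog transfectants and 39 (1.30 CPM) in EGFP. The RA deficit was 18.65-fold in WT (15.2 to 23.2) and 17.0-fold in L122A (14.1 to 20.7). Lox (ENSMUSG00000024529; mm9 chromosome 18, 52679571 to 52689357, minus strand) encodes lysyl oxidase, which crosslinks collagen and elastin. It had 8 counts in WT, 5 in L122A and 67 in EGFP with RA, 0, 0 and 35 counts in WT, L122A and EGFP without LIF, and 0, 0 and 4 counts with LIF. With RA Lox was 8.33-fold lower in WT (3.99 to 20.1) and 14.9-fold lower in L122A (6.06 to 47.2) than in EGFP.

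Levels of different genes were compared per length, in the authors' FPKM, which divides a gene's fragments by its length and by the library total. Sparc was the most abundant of the 10 genes in WT with RA (579 FPKM) and in the 3 EGFP libraries (1043 FPKM with RA, 295 without LIF, 143 with LIF). Spp1 ranked above Sparc in the other 5 libraries, all of Nanog transfectants, at 337 FPKM with RA, 208 FPKM without LIF and 259 FPKM with LIF in L122A, and at 107.5 FPKM without LIF and 232 FPKM with LIF in WT. In EGFP with RA the order was Sparc, Fn1 (112 FPKM), Thbs1 (56.4 FPKM), Tnc (47.9 FPKM), Dcn (11.3 FPKM), Fbn1 (7.63 FPKM), Adam12 (7.50 FPKM), Spp1 (4.44 FPKM), Thbs2 (1.5 FPKM) and Lox (1.48 FPKM). The neighbours Fbn1 and Adam12, and Thbs2 and Lox, lay close together, and without replicates no order between neighbours was tested.

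**Figure D2:**
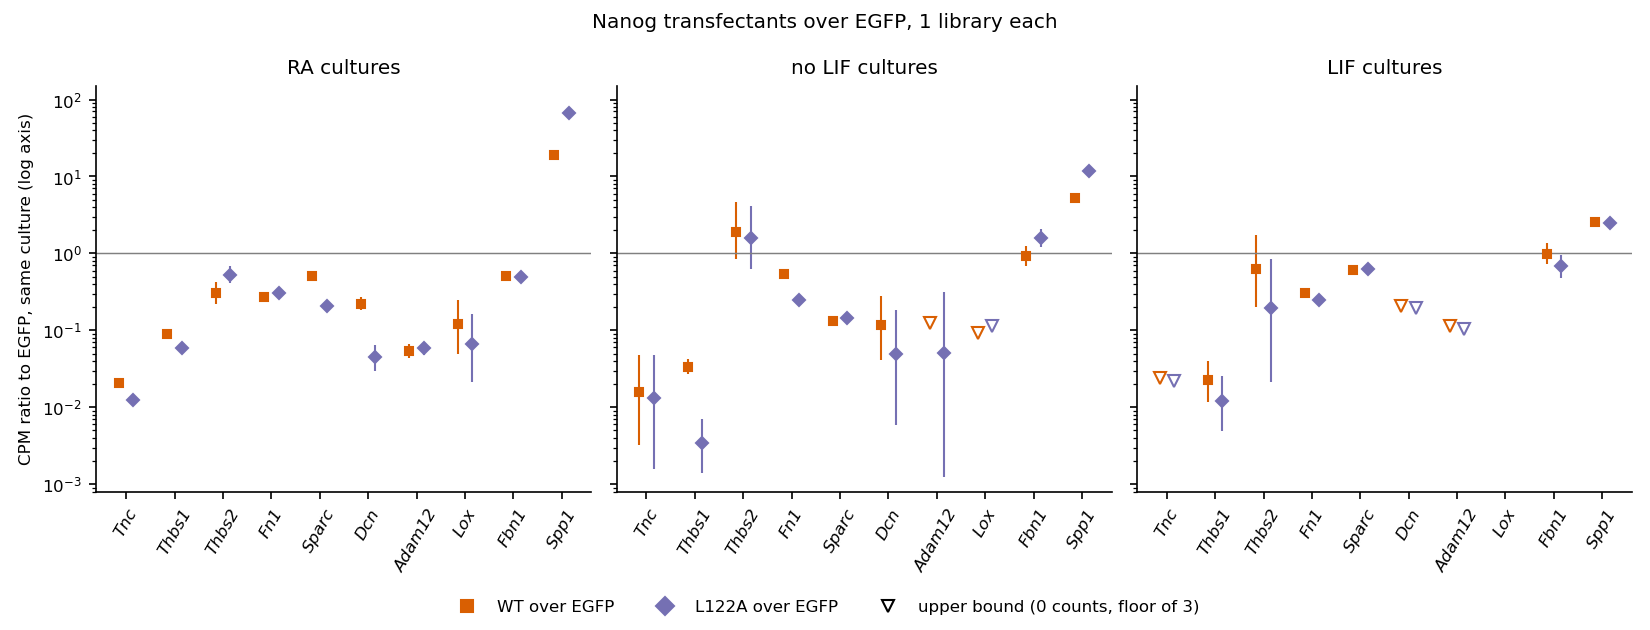
CPM of WT (squares) and L122A (diamonds) divided by that of EGFP in the same culture (log axis), 1 library each, with exact 95% Poisson intervals that cover counting error only. Open triangles are upper bounds for libraries with 0 counts. Lox with LIF is left out, since with 0 counts against 4 in EGFP its upper bound lay above 1. Spp1 lies above 1 in each culture, at 18.9 in WT and 67.85 in L122A with RA.

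When a difference was counted from 2-fold upwards, and only where the higher of the pair reached 5 CPM, 1 gene (Spp1) was higher and 6 were lower in WT than in EGFP with RA, beside 3.22% and 4.99% of all 13996 genes tested. In L122A with RA, Spp1 was higher and 7 were lower than in EGFP, beside 5.99% and 8.35% of genes. Without LIF, Spp1 was higher and 3 were lower in WT (5.74% and 5.91% of genes), and Spp1 was higher and 4 lower in L122A (7.07% and 7.70%). With LIF, Spp1 was higher and 3 were lower in each Nanog transfectant, beside 3.72% and 3.69% of genes in WT and 3.17% and 3.76% in L122A. The choice of genes used these contrasts, so the counts describe the set, and WT and L122A were set against the same EGFP libraries. Fitted over the 3 cultures, the log2 differences were, for WT and for L122A against EGFP, -5.95 and -6.58 for Tnc, -4.65 and -5.81 for Thbs1, -4.81 and -4.55 for Adam12, and -2.915 and -4.81 for Dcn. They were -1.575 and -1.98 for Sparc, -1.45 and -1.90 for Fn1, -0.60 and -0.765 for Thbs2, -0.42 and -0.32 for Fbn1, and 2.30 and 3.53 for Spp1. Of the 9 genes with a fitted value, Thbs2 and Fbn1 were thus the closest to EGFP.

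RA raised most of the set. Across the 3 transfectants, 8 of the 9 genes tested rose with RA against LIF and 1, Spp1, fell, beside 24.5% of all genes that rose and 23.8% that fell (edgeR quasi-likelihood test, adjusted p below 0.05). The set was selected on values of these same libraries, EGFP with RA among them. This count, that against no-LIF and the RA p-values of the set are thus not independent of the choice. Lox was not tested, since it reached 1 CPM in 2 libraries where 3 were required. Thbs2 passed that filter only through the 3 RA libraries, so a gene of its kind had to be higher with RA to be tested, and Dcn and Adam12 passed through 2 and 3 RA libraries. Thbs2 was therefore no longer tested when any RA library was left out, nor Dcn without EGFP no-LIF, EGFP RA or WT RA, and the 8 rises became 6 without EGFP RA or WT RA. Among Fn1, Sparc, Fbn1 and Spp1, which reached 1 CPM in every library, 3 rose and 1 fell. With no replicates, each gene's error is its departure from additive effects of culture and transfectant over the 9 libraries (4 residual degrees of freedom). edgeR moderates this error towards a trend over all genes tested, so a p-value rests also on other genes. The error measures the spread between these libraries only.

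**Figure D3:**
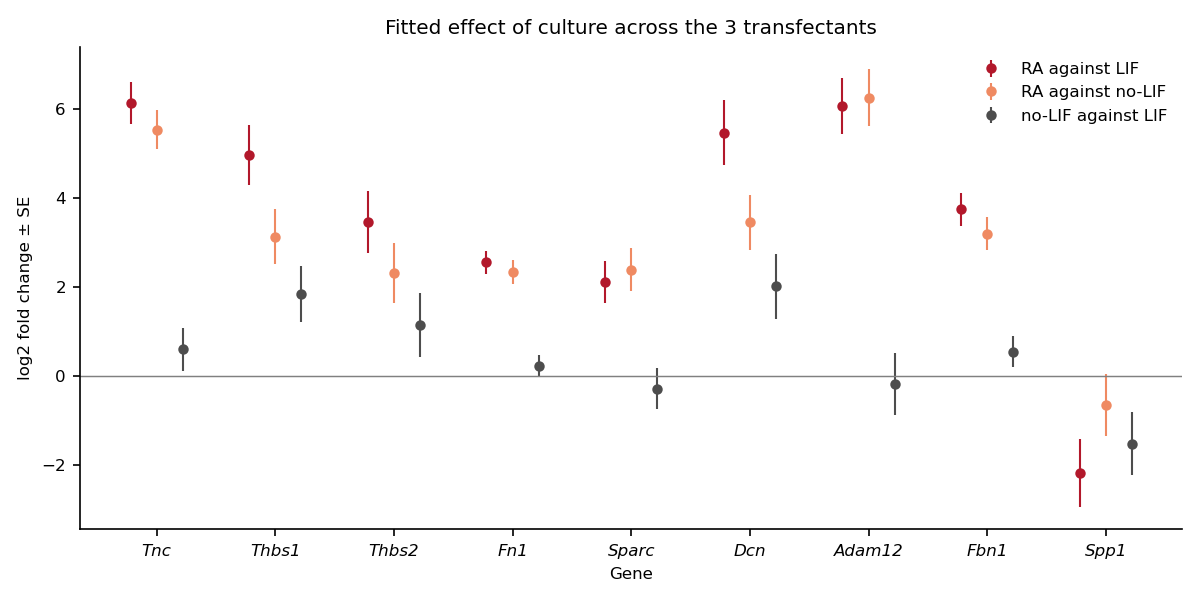
Fitted log2 fold change ± SE of the 9 tested genes between cultures over the 3 transfectants (9 libraries, edgeR). Tnc and Adam12 lie near 6 with RA against LIF and against no-LIF, and Spp1 lies at -2.18 against LIF.

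The log2 fold change with RA against LIF was 6.13 for Tnc (SE 0.46, adjusted p = 0.000201, edgeR) and 6.06 for Adam12 (SE 0.63, adjusted p = 0.000412). It was 5.46 for Dcn, 4.96 for Thbs1 and 3.74 for Fbn1 (SE 0.72, 0.68 and 0.37), with adjusted p = 0.000857, 0.00118 and 0.000382 in edgeR. The smaller rises were 3.46 for Thbs2, 2.55 for Fn1 and 2.10 for Sparc (SE 0.705, 0.26 and 0.47, edgeR adjusted p = 0.00485, 0.000403 and 0.00815). Each of these 8 genes was higher with RA than with LIF in 3 of 3 transfectants. The size depended on single libraries for several genes: without EGFP LIF the fit gave 10.09 for Tnc, 9.32 for Adam12 and 8.78 for Dcn, all of which then rest on LIF libraries with 0 counts. Without EGFP RA it gave 7.02 for Tnc, 7.58 for Adam12 and 5.85 for Thbs1, and without L122A RA it gave 4.27 for Thbs1. Spp1 fell by 2.18 on the log2 scale (SE 0.76, edgeR adjusted p = 0.0453), and this call was the least secure. Its adjusted p was 0.126, 0.0733 and 0.0585 without EGFP LIF, EGFP no-LIF and EGFP RA, 0.114, 0.0672 and 0.130 without WT LIF, WT no-LIF and WT RA, and 0.0789 without L122A no-LIF. Without EGFP LIF or EGFP RA the value was -1.34 or -1.28, and without L122A LIF or L122A RA it was -3.001 or -2.961 and still past the threshold. The call was also lost with library totals alone as the scaling (adjusted p = 0.111), with no filter on low counts (0.232), in limma on log2(FPKM + 1) (0.0638) and in a fit of the 6 RA and LIF libraries alone (0.129).

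Against no-LIF, 8 of the 9 genes rose with RA and none fell, beside 22.6% and 21.9% of all genes. Thbs2, among the 8, reached 1 CPM only in the 3 RA libraries and so had to be higher with RA to be tested. Of the genes of the set that reached 1 CPM in every library, Fn1, Sparc and Fbn1 rose and Spp1 was not called. The rises were 6.25 for Adam12, 5.53 for Tnc, 3.45 for Dcn, 3.19 for Fbn1 and 3.12 for Thbs1, with SE 0.644, 0.446, 0.625, 0.365 and 0.616. Sparc rose by 2.39, Fn1 by 2.33 and Thbs2 by 2.31 (SE 0.48, 0.26 and 0.67). Adjusted p in edgeR ran between 0.000287 for Tnc and 0.0232 for Thbs2. Thbs2 lost the call without EGFP no-LIF (1.695, adjusted p = 0.0747 in edgeR) and also without L122A no-LIF, and without EGFP no-LIF the value for Sparc was 3.07. Without EGFP RA, Thbs1 and Adam12 gave 3.92 and 7.64, and Thbs1 gave 2.49 without L122A no-LIF and 2.44 without L122A RA. Spp1 did not pass (-0.66, SE 0.69, adjusted p = 0.466 in edgeR).

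Removing LIF alone gave no call among the 9 genes in edgeR, beside 0.0714% of all genes (10 genes). At an unadjusted p under 0.05, 2 of the 9 had a value, Dcn at 2.015 (SE 0.73) and Thbs1 at 1.84 (SE 0.63), as did 1222 of all genes. DESeq2 called none of the 9 and 278 genes in all. Between L122A and WT, edgeR called none of the 9 genes and 0.0% of all genes, against 614 genes at an unadjusted p under 0.05, of which 1, Dcn (-1.90, SE 0.72), was in the set. DESeq2 called 51 genes there, none of them in the set. Within single cultures, L122A was compared with WT from 2-fold upwards where the higher of the pair reached 5 CPM. Spp1 was 3.58-fold higher with RA (3.46 to 3.71) and 2.25-fold higher without LIF (2.17 to 2.33). Sparc was 2.43-fold lower with RA (2.395 to 2.47), and Fn1 was 2.19-fold lower without LIF (2.01 to 2.40). These are 1 gene higher and 1 lower in each of the 2 cultures, beside 2.49% and 2.78% of genes with RA and 2.79% and 2.99% without LIF. With LIF none of the set differed by 2-fold at 5 CPM, beside 1.29% of genes higher and 1.27% lower. Below 5 CPM there were larger gaps, with L122A the lower. Thbs1 without LIF stood at 3.47 CPM (85 counts) in WT and 0.354 CPM (7 counts) in L122A. Dcn with RA stood at 3.94 CPM (126 counts) in WT and 0.785 CPM (28 counts) in L122A.

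How far the response to culture of the Nanog transfectants together departed from that of EGFP was fitted as an interaction, with 3 residual degrees of freedom. WT and L122A, which carry different constructs, stood in as replicates of 1 class in each culture. The residual thus comes from their differences, and EGFP, with 1 library per culture, adds nothing to it. Since the set was selected on the difference between the same transfectants, the values of its genes are a description with no test. For RA against LIF the log2 interaction was 4.45 for Tnc, 4.35 for Dcn, 4.10 for Spp1, 3.99 for Adam12 and 2.08 for Thbs1. It lay between -0.78 (Sparc) and 0.07 (Fn1) for Sparc, Fbn1, Thbs2 and Fn1. A positive value means a larger rise, or for Spp1 a smaller fall, in the Nanog transfectants. For Tnc, Dcn and Adam12 it rests on LIF libraries of the Nanog transfectants with 0 counts, and on the scale of log2(FPKM + 1) in limma the sign turned, to -3.82 for Tnc, -1.84 for Dcn and -2.32 for Adam12. For no-LIF against LIF the interaction was -2.16 for Sparc, the only negative value of the 9, and 4.34 for Tnc. The other matrix genes described below were tested: none of 102 passed in edgeR, beside 0.00714% of all genes (1 gene) for RA and 0.0% for no-LIF. At an unadjusted p under 0.05 there were 21 of the 102 and 1554 of all genes for RA, and 13 of the 102 and 1117 of all genes for no-LIF. DESeq2 called 3 of the 102 lower for RA (264 of all genes), and 1 higher and 1 lower for no-LIF (120 of all genes). On counts simulated with the spread left by the additive fit, the interaction test for RA recovered 8.22% of 4-fold and 42.1% of 8-fold changes. Differences of these sizes were thus mostly not detectable in that setting. It may differ from these libraries, since that spread takes in any real interaction and low-count genes were not among those changed.

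Over the 9 libraries the 9 genes other than Spp1 varied together: in their 36 pairs, Pearson's r of log2(CPM + 1) ran between 0.504 and 0.966, with a median of 0.87. Spp1 was inversely related to each of them, with r between -0.954 and -0.506. These correlations are descriptions over 9 libraries that share cultures and transfectants. The genes were selected on the difference between transfectants in these libraries, so their correlations are not independent of the choice. In the 10040 genes whose mean reached 5 CPM, the patterns most like that of Tnc by Pearson's r were those of Col5a2 and Col1a1, chains of fibrillar collagens (r = 0.988 and 0.976), and Cpeb2, an RNA-binding protein (r = 0.978). By Spearman's rho these stood only at ranks 81, 404 and 71. Among those most like Fn1 were F2r, the thrombin receptor (0.986), and Wee1, a cell cycle kinase (0.985), at ranks 18 and 447 by Spearman's rho. Those most like Spp1 were As3mt, an arsenite methyltransferase (0.970), 5730419I09Rik (0.969) and Slc25a35 (0.960), at ranks 173, 8 and 148 by Spearman's rho. Col5a2 stood at 5.595 CPM in WT, 4.01 CPM in L122A and 79.0 CPM in EGFP with RA, and at 5.23 CPM or less in the other 6 libraries.

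Another 137 genes in 9 lists, of which 102 were tested, were counted beside the set and are called other matrix genes. They include 18 receptors for matricellular proteins and 11 TGF-beta ligands, receptors and Smad-related genes, which are given under Other observations. With RA against LIF, 71 rose and 4 fell, beside 24.5% of all genes that rose and 23.8% that fell. The median log2 fold change was 1.82 against 0.01 for all genes, and the 4 falls became 2 without WT no-LIF or WT RA. Against no-LIF 64 rose and 4 fell (median 1.495, all genes 0.02), beside 22.6% of all genes that rose and 21.9% that fell. These 4 falls became 2 if L122A no-LIF, WT no-LIF or WT LIF was left out and 1 without WT RA. The lists were written with earlier results of these libraries known. Smoc2 and P4ha3 reached 1 CPM only in the 3 RA libraries, so that each had to be higher with RA to be tested. Of the 62 genes that reached 1 CPM in every library, 45 rose and 3 fell with RA against LIF, and 41 rose and 2 fell against no-LIF. Of the other matricellular genes, 7 of 10 tested rose with RA against LIF and 1 fell: Smoc2, a calcium-binding basement membrane protein, rose by 9.85 (SE 0.97) and Cyr61, an integrin ligand, by 3.53 (SE 0.70), while Smoc1 fell by 1.22 (SE 0.41). Of the microfibril and elastic fibre genes, 11 of 14 rose, led by Fbn2 (6.16, SE 0.26), the embryonic fibrillin, and Efemp1 (6.02, SE 0.58), a fibulin. Of the lysyl oxidases and collagen-modifying enzymes, 7 of 12 rose, led by P4ha3, a prolyl hydroxylase subunit (7.10, SE 0.94), and Loxl2 (3.60, SE 0.75). Of the other ADAM and ADAMTS proteases, 11 of 20 rose and 2 fell, with Adamts6 at 5.37 and Tll1, a procollagen proteinase, at 4.83 (SE 0.95 and 0.40), and Adam33 at -4.07 and Adam23 at -1.60 (SE 0.73 and 0.39). Of the matrix metalloproteases, plasminogen activators and inhibitors, 13 of 16 rose, led by the plasminogen activators Plat (5.80, SE 0.50) and Plau (5.19, SE 0.33). Bgn, biglycan, the only small leucine-rich proteoglycan tested of 9, rose by 3.225 (SE 0.41). The 4 bone sialoprotein relatives of Spp1 were all below 1 CPM in every library and were not tested. Against no-LIF the largest rises in each list were those of Smoc2 (7.28) and Spock3 (2.89), Fbn2 (5.99) and Ltbp1 (3.43), P4ha3 (6.14) and Loxl2 (2.84), Adamts1 (3.46) and Tll1 (3.38), Plat (4.85) and Plau (4.82), and Bgn (2.73), and the falls were those of Thbs3 (-1.52), Adam33 (-3.03), Adam23 (-1.16) and Mmp9 (-1.79). The largest adjusted p among these named genes was 0.0354 against LIF (Smoc1) and 0.0399 against no-LIF (Adam23), in edgeR.

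**Figure D4:**
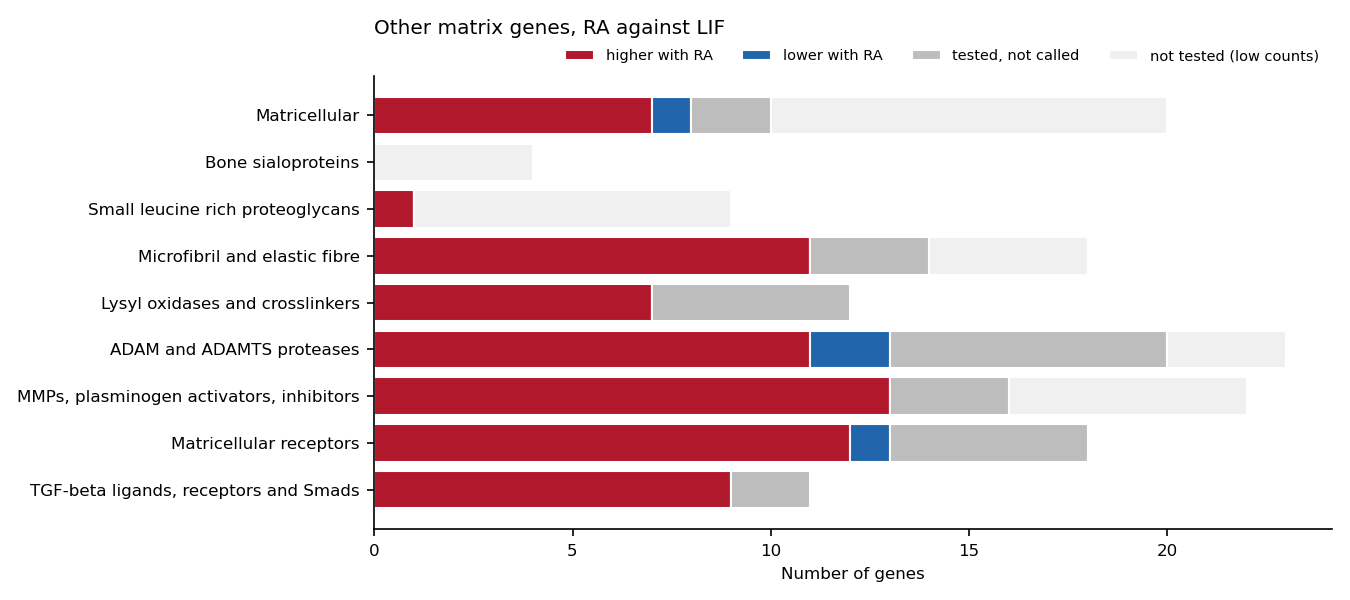
Number of genes in each of the 9 lists of other matrix genes that rose (red), fell (blue) or were not called (grey) with RA against LIF in edgeR at adjusted p below 0.05. Pale bars are genes not tested for low counts. Rises outnumber falls in each list with a call, 71 to 4 over all lists, while 24.5% of all genes rose and 23.8% fell.

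Other matrix genes also differed between Nanog transfectants and EGFP. Their lists were written with earlier results of these libraries known. The counts and p-values for WT and L122A below are not independent of those results. In WT against EGFP 5 of the 102 fell and none rose, beside 0.286% and 0.0357% of all genes. Among these were Ctgf, a matricellular growth factor modulator (-2.76, SE 0.35, edgeR adjusted p = 0.0266), Cd44, the hyaluronan and osteopontin receptor (-2.42, SE 0.30, adjusted p = 0.0266), Efemp1 (-4.09, SE 0.51, adjusted p = 0.0269) and Tgfb2, a TGF-beta ligand (-4.57, SE 0.46, adjusted p = 0.0244). Tgfb2 stood at 19.9 CPM in WT, 8.97 CPM in L122A and 221 CPM in EGFP with RA, at 0.734, 1.47 and 40.4 CPM in WT, L122A and EGFP without LIF, and at 0.3445, 0.451 and 14.15 CPM with LIF. Ctgf stood at 41.2 CPM in WT, 37.6 CPM in L122A and 205 CPM in EGFP with RA, at 33.6, 14.9 and 171 CPM without LIF, and at 5.81, 7.85 and 78.6 CPM with LIF, in the same order. The count of 5 became 0 without WT LIF or WT no-LIF, 2 without EGFP no-LIF, 3 without WT RA or L122A no-LIF, and 8 without EGFP RA.

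In L122A against EGFP 14 of the 102 fell and 2 rose, beside 1.99% and 0.893% of all genes. The falls included Wisp1 (-5.90) and Ctgf (-3.09), Efemp1 (-5.69) and Nid1 (-1.73), Adamts5 (-4.14) and Adamts1 (-2.57), Plau (-2.48), Cd44 (-2.30) and Itgb1 (-1.28), and Tgfb2 (-4.86). Spock2, a testican proteoglycan, rose by 2.35 and Itga9, an integrin chain that binds tenascin-C and osteopontin, by 1.53. Adjusted p of the genes named here ran up to 0.0434 in edgeR (Adamts1). The 14 falls became 1 without L122A no-LIF, 6 without WT LIF or L122A RA, and 7 without EGFP no-LIF, and the 2 rises became 0 without EGFP no-LIF, WT LIF or L122A no-LIF and 1 if L122A RA, L122A LIF, WT no-LIF or WT RA was left out. Between L122A and WT, and for no-LIF against LIF, none of the 102 passed in edgeR. At an unadjusted p under 0.05 there were 11 and 21, beside 614 and 1222 of all 13996 genes. DESeq2 called 1 and 3 of the 102. Of all genes it called 26 higher and 25 lower between L122A and WT, and 157 higher and 121 lower for no-LIF against LIF.

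The summed smooth muscle and fibroblast markers were, like most of the set, highest in EGFP with RA. The endoderm, endothelial and macrophage sums were not. Single markers did not all follow their sum. Pdgfrb, a fibroblast marker, was fitted near EGFP over the cultures, at a log2 difference of 0.415 (SE 0.454) in WT and 0.169 (SE 0.462) in L122A. Its log2 interaction for RA was -1.61 (SE 0.82), a smaller rise in the Nanog transfectants that was not called. The part of other cell types in the results was not tested. The 5 smooth muscle markers, led by Acta2 and Tagln, summed to 666 CPM in WT, 173 CPM in L122A and 5048 CPM in EGFP with RA. They summed to 24.3, 20.85 and 1060 CPM in WT, L122A and EGFP without LIF, and to 18.01, 22.5 and 246 CPM with LIF. The 10 fibroblast markers summed to 66.0 CPM in WT, 35.3 CPM in L122A and 415 CPM in EGFP with RA, and to between 10.7 and 38.4 CPM in the other libraries. Lum was at 0 in all but EGFP without LIF (0.114 CPM). Col1a1 was the most abundant of the fibroblast markers in WT and EGFP with RA (17.2 and 172 CPM), and Twist1 in L122A with RA (8.75 CPM). Thy1 stood at 0.1875, 0.4205 and 1.96 CPM in WT, L122A and EGFP with RA, and at 4.08, 11.6 and 1.37 CPM with LIF. The fitted log2 differences of WT and of L122A from EGFP were -3.46 and -3.85 for Col3a1, -3.32 and -5.10 for Col1a2, and -2.88 and -3.29 for Col1a1. They were -2.94 and -3.56 for Prrx1, -4.15 and -2.88 for S100a4, -0.16 and -0.35 for Twist1, and -0.275 and 0.369 for Thy1. The 10 endoderm markers followed another order with RA, 519 CPM in WT, 181.5 CPM in L122A and 257 CPM in EGFP, against 23.6 to 79.2 CPM in the other cultures. The 5 endothelial markers summed to between 6.75 and 37.45 CPM. Of 5 macrophage markers, Ptprc, Csf1r, Adgre1 and Lyz2 were at 0.367 CPM or less in every library, and Cd68, a lysosomal protein, stood between 6.94 and 19.0 CPM.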

How the data were processed

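RNA-seq was deposited as 1 table of counts and FPKM per gene for 9 libraries. Per the submitters' processing notes, the aligner was TopHat2 2.0.11 and the build mm9. No counting tool and no use of strand is named in the sources used here, so a gene and an antisense partner cannot be told apart. The deposited counts were whole numbers, and the authors' FPKM equalled count over length and library total within 1% for 100.0% of genes above 5 FPKM. Columns headed "undet" were taken as the LIF culture by elimination, and those headed L122 as L122A, the one transfectant name that starts so.

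The 13996 genes that reached 1 CPM in 3 libraries or more entered a robust quasi-likelihood fit in edgeR 4.0.16 (R 4.3.3) with TMM factors and additive terms for transfectant and culture (9 libraries, 4 residual degrees of freedom). The common biological coefficient of variation was 0.325. Interactions set the Nanog transfectants together against EGFP, with WT and L122A standing in as replicates although they carry different constructs. P-values were adjusted over all 13996 genes by Benjamini and Hochberg, with a threshold of 0.05. Each SE was taken as the absolute log2 fold change divided by the root of its F statistic. No replicate exists, so p-values set each contrast against how far single libraries depart from these models, which may be technical. edgeR moderates that error towards a trend over all genes tested. No batch is given in the labels.

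Between single libraries, CPM ratios carry exact 95% Poisson intervals, a count of 0 was set to a floor of 3 counts, and a difference was counted at 2-fold where the higher of the pair reached 5 CPM. The fits were tested on simulated data with 200 changed genes: RA against LIF recovered 17.1% of 2-fold, 91.8% of 4-fold and 94.7% of 8-fold changes over 13722 genes. Alternatives were RLE size factors, library totals, no filter, DESeq2 1.42.0, limma 3.58.1 on log2(FPKM + 1), leaving out ribosomal RNA and mitochondrial genes, the 6 libraries compared, and each library left out. The 10 genes, the lists and the tests were chosen with earlier results of these data known. Genes were named by rule: per list and comparison the 2 called genes with the largest rise and the 2 with the largest fall, otherwise that with the smallest p, and the 3 genes most like Tnc, Fn1 and Spp1. Some genes that the rule names are not reported here.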

Additional observations from a re-analysis of the deposited data

Results flagged for a closer look

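Sparc moved in opposite directions when LIF was removed. The no-LIF to LIF ratio was 0.476 in WT (95% interval 0.4555 to 0.4965, counting error only), 0.511 in L122A (0.489 to 0.534) and 2.21 in EGFP (2.164 to 2.255), so that both Nanog transfectants went one way and EGFP the other. The log2 interaction of the Nanog transfectants with EGFP was -2.16, and this difference was not tested, since the set was selected on the difference between these transfectants.

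Fbn1 in L122A relative to EGFP also changed direction with the culture: the ratio was 0.490 with RA (0.455 to 0.526) and 1.58 without LIF (1.21 to 2.08). This difference was not tested. Fbn1 counts were 1151 in L122A and 2121 in EGFP with RA, and 123 in L122A and 103 in EGFP without LIF.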

How the results depend on the processing

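No paired analysis was possible because each combination has 1 library and so no replicate number to pair by, beyond the terms of the fit, which already compare cultures within a transfectant and transfectants within a culture. The interactions could not be estimated without an EGFP library of either culture compared. Scaling by library totals moved the median log2 fold change of all genes to 0.39 for RA against LIF and 0.43 for RA against no-LIF, with 4503 rises and 1945 falls in place of 3423 and 3328, and 4456 and 1679 in place of 3168 and 3067. limma on log2(FPKM + 1) gave 4671 and 2133, and 4685 and 1838. The fitted values of the low genes were also smaller there, 2.17 for Tnc and 1.33 for Adam12 with RA against LIF. RLE size factors, and leaving out ribosomal RNA and mitochondrial genes, changed no count beyond 1.5 times. The causes of the changes below were not tested.

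With library totals, Spp1 was no longer called with RA against LIF (0 genes of the set lower), 2 genes passed for no-LIF against LIF, 22 for WT against EGFP and 253 for L122A against EGFP (53 higher and 200 lower in place of 125 and 278), with 1 other matrix gene higher in the last. The 2-fold counts became 0 higher for WT over EGFP with LIF, 0 higher for L122A over WT without LIF, 1 lower for no-LIF over LIF in WT and 1 lower for the same ratio in L122A.

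With no filter, 0 of the set were lower with RA against LIF, and 37 genes passed for no-LIF against LIF, 1 for L122A against WT, and 138 for WT against EGFP, with 10 other matrix genes lower. The RA interaction called 684 genes, among them 9 other matrix genes lower, and the no-LIF interaction 403 genes, with 1 other matrix gene higher and 5 lower.

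DESeq2 called 278 genes for no-LIF against LIF, with 3 other matrix genes higher, 51 for L122A against WT, with 1 higher, 614 for WT against EGFP, with 2 higher and 22 lower, and 1438 for L122A against EGFP, with 5 higher and 35 lower. It called 264 for the RA interaction, with 3 other matrix genes lower, and 120 for the no-LIF interaction, with 1 higher and 1 lower.

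In limma, 0 of the set and 1 other matrix gene were lower with RA against LIF, 2 other matrix genes were lower against no-LIF, and 4 genes passed for no-LIF against LIF. WT against EGFP gave 19 genes, with 3 other matrix genes lower, and L122A against EGFP 217, with 0 higher and 9 lower. The RA interaction gave 20 genes, with 1 other matrix gene lower. The untested interaction values of the set turned sign there to -3.82 for Tnc, -2.32 for Adam12, -1.838 for Dcn, -1.02 for Thbs1 and -0.45 for Thbs2 with RA, and to -1.428 for Thbs1, -0.468 for Dcn and -0.09 for Tnc without LIF.

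With the 6 libraries compared, 0 of the set and 2 other matrix genes were lower with RA against LIF, 86 genes passed for no-LIF against LIF, with 1 other matrix gene higher, and 3 for L122A against WT. WT against EGFP gave 86 and L122A against EGFP 79, with 0 other matrix genes higher and 7 lower.

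Leaving out each library gave 4067 to 6682 genes for RA against LIF, with 0 to 1 of the set and 2 to 4 other matrix genes lower, 3499 to 6309 for RA against no-LIF, with 1 to 4 lower, and 0 to 43 for no-LIF against LIF, with 0 to 1 other matrix genes higher. WT against EGFP gave 0 to 144 genes, with 0 to 8 other matrix genes lower, and L122A against EGFP 24 to 565, with 0 to 3 higher and 1 to 18 lower. The RA interaction gave 1 to 173 genes, with 0 to 5 other matrix genes lower, and the no-LIF interaction 0 to 35. The untested interaction values ran between -0.601 and 1.064 for Thbs2 and -0.091 and 0.243 for Fn1 with RA, and between -2.327 and 0.949 for Thbs1 and -0.16 and 0.975 for Fn1 without LIF. Fbn1 in L122A against EGFP, -0.32 over all libraries, ran between -0.754 without L122A no-LIF and 0.038, with the sign reversed, without EGFP RA.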

Other observations

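The receptors and TGF-beta genes given here are among the other matrix genes counted above. Of 18 receptors for matricellular proteins tested, 12 rose with RA against LIF, 1 fell and 5 were not called. Of all genes, 24.5% rose and 23.8% fell. Cd36, a thrombospondin receptor, rose by 3.67 on the log2 scale (SE 1.31, edgeR adjusted p = 0.0454). It reached 1 CPM in only 3 libraries, 2 of them with RA, and was not called against no-LIF (edgeR adjusted p = 0.145). Itgav, the alpha-v integrin chain that binds fibronectin and osteopontin, rose by 2.91 (SE 0.18, edgeR adjusted p = 9.66e-05), while Itga9 fell by 1.16 (SE 0.25, adjusted p = 0.0058). Against no-LIF 9 of 18 rose, led by Itgav (2.83) and Sdc3, a syndecan (2.56), and none fell, beside 22.6% and 21.9% of all genes. Cd44 stood at 10.8 CPM in WT, 8.495 CPM in L122A and 62.1 CPM in EGFP with RA, at 4.04, 4.201 and 24.15 CPM in WT, L122A and EGFP without LIF, and at 1.92, 3.02 and 8.36 CPM with LIF. Itga9 ran the other way, at 5.72 CPM in WT, 7.99 CPM in L122A and 3.57 CPM in EGFP with RA, and at 11.96, 21.7 and 7.09 CPM in WT, L122A and EGFP with LIF. Of 11 TGF-beta ligands, receptors and Smad-related genes, all tested, 9 rose with RA against LIF, led by Tgfb2 (4.66, SE 0.48) and Tgfb3 (4.51, SE 0.72), and 9 rose against no-LIF, led by Tgfbr2, the type II receptor (3.40), and Tgfb2 (3.22).

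Where no list member passed, the smallest p in each list for no-LIF against LIF belonged to Ctgf (1.502), Efemp1 (2.85), Pxdn (0.80), Adamts6 (3.86), Reck (0.90), Cd44 (1.01), Smad3 (1.20) and Bgn (0.49), with adjusted p between 0.176 and 0.852 in edgeR. For L122A against WT it belonged to Smoc2 (-1.71), Fbn2 (-0.90), P4ha3 (-2.77), Adamts4 (1.32), Plau (-0.88), Itgb3 (1.23), Skil (-0.56) and Bgn (0.54), with adjusted p between 0.706 and 0.999 in edgeR.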
